A study of Mus musculus with 58 samples.

Results

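Heat shock proteins and DnaJ co-chaperones were followed in the diaphragm and in a limb muscle, the tibialis anterior of the shin, of mice that carried human pancreatic tumours. The 72 genes are those whose symbol in the array's annotation starts with Hspa, Hspb, Hsp90, Hspd, Hspe, Hsph, Dnaja, Dnajb or Dnajc and goes on with a number or, for Hsp90, with letters, out of 23185 named probe sets and 25206 in all. The rule uses symbols alone. Each gene had 1 probe set, and all 72 were tested. The mean of 61 genes over all arrays lay at or above the median of all probe sets, 3.78 on the log2 scale. The other 11 lay below it, and the size of a difference is less certain for these dim genes: Dnajb13, Dnajb3, Dnajb7, Dnajb8, Dnajc22, Dnajc24, Dnajc5b, Dnajc5g, Dnajc6, Hsp90aa1 and Hspb11. Dnajc19-ps is named as a pseudogene, and Hspb11 belongs to this group by name only, since its product is better known as Ift25, a protein of intraflagellar transport.

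Adult female mice of the NSG strain, which lacks mature T, B and natural killer cells, had an operation in which tumour from cachectic patients with pancreatic ductal adenocarcinoma was implanted (PDX), or the operation without a tumour (sham). Mice were killed when those with a tumour were severely wasted or their tumours had passed a size limit. RNA of each muscle was hybridised to Affymetrix arrays, 58 in all, and each muscle had 17 PDX and 12 sham arrays. All values below are RNA levels, also where a gene is named by its protein. The mice fell into 4 cohorts. For each muscle, PDX arrays numbered 3 in cohort 1, 5 in cohort 2, 5 in cohort 3 and 4 in cohort 4, and sham arrays 3 in every cohort. All groups share strain and sex. The labels do not say that each array comes from its own animal, so p-values take in only the spread among arrays, part of which may be technical.

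Heat shock proteins are chaperones: they hold unfolded proteins, help them fold and hand those that fail to the degradation systems. Members of the Hsp70 family (Hspa genes) work in a cycle of ATP hydrolysis that J proteins (Dnaj genes) start and that nucleotide exchange factors such as the Hsp110 proteins end, while Hsp90 proteins act later in folding and small heat shock proteins (Hspb genes) hold unfolded clients without ATP. Skeletal muscle is rich in small heat shock proteins, which bind to the sarcomere and the cytoskeleton, and the mitochondria and the endoplasmic reticulum have chaperone sets of their own.

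Promoter sequences were searched for the binding motif of the heat shock factors, which is built of GAA units in alternating orientation, and for the element through which stress of the endoplasmic reticulum acts on chaperone genes. RefSeq promoter windows of mouse build GRCm38.p6, from 250 bases before to 50 bases after a gene's start, were at hand for 58 of the 72 genes. The stretches below belong to genes whose values the results turn on, and capitals mark the motif:
Hsph1 (chr5:149636279-149636308, minus strand): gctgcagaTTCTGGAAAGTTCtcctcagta
Hspe1 and, read from the other strand, Hspd1 (chr1:55088053-55088082, plus strand): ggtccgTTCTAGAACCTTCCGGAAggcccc
Dnajb6 (chr5:29735844-29735873, plus strand): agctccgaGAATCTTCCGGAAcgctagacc
Hspa1a (chr17:34972242-34972271, minus strand): cgaaactgctgGAAGATTCctggccccaag
Dnaja4 (chr9:54699458-54699487, plus strand): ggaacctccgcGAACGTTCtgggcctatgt
Hspb3 (chr13:113663882-113663911, minus strand): ctccccgaatgGAATTTTCaggcagaggga
Hspa5 (chr2:34772020-34772049, plus strand): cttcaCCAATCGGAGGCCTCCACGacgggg
Hsp90b1 (chr10:86705632-86705661, minus strand): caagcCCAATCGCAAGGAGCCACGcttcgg
Dnajc3 (chr14:118937822-118937851, plus strand): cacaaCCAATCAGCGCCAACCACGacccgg

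The motif of 3 units (GAA, TTC and GAA, each 2 bases from the next), searched on both strands, stood in the windows of 4 of the 58 genes (6.90%), Dnajb6, Hspd1, Hspe1 and Hsph1, against 0.662% of 27025 genes with a window. Hspd1 and Hspe1 lie head to head and share 1 site, a run of 4 such units that begins 89 bases before the start of Hspe1. In Hsph1 the motif began 15 bases after the start of the gene. The 2-unit motif GAANNTTC, with N for any base, which the 3-unit motif contains, was found in 14 of the 58 genes (24.1%) and in 9.04% of all genes, and its other order TTCNNGAA in 6 (10.3%) and in 9.60%. Hspa1a and Hspa1b have near-identical promoters, with equal bases at 296 of 300 positions and the same stretch around the motif. The endoplasmic reticulum stress response element (CCAAT and CCACG, 9 bases apart) stood in 3 of the 58 genes (5.17%), Dnajc3, Hsp90b1 and Hspa5, against 0.137% of all genes. A match shows that these letters are present and not that a factor binds there.

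Liver signal set many diaphragm arrays apart. The mean of 14 hepatocyte markers ranged from 4.12 to 11.2 in PDX diaphragms (median 6.92) and from 4.15 to 10.8 in sham diaphragms (median 6.17), and 0 of the 14 markers passed the test between them. In 11 diaphragm arrays, 6 PDX and 5 sham, this mean lay over 1 log2 unit above the diaphragm median. The diaphragm results are also given without these arrays, as liver-poor values from 18 arrays. Some cohorts then keep 1 array of a group, which the fit takes to vary like the others. Liver-poor arrays were not free of this signal. The mean still reached 7.66 in PDX array 2 of cohort 1 and 7.47 in sham array 3 of cohort 4. PDX array 2 of cohort 3 and PDX array 4 of cohort 4 lay at 6.92 and 7.01. In cohort 1 the sham array kept lay at 4.27. In the tibialis anterior, all 7 fibroblast markers fell, with a mean of 4.86 to 7.16 in PDX arrays and 7.16 to 8.03 in sham arrays. Of the 5 tendon markers, 4 fell there, with a mean of 3.37 to 4.97 in PDX arrays and 4.38 to 6.28 in sham arrays. Muscle fibre markers stood far above the median of all probe sets in both muscles, with a mean of 10.2 or more on every array. In the diaphragm their mean had a median of 10.8 in PDX arrays (10.2 to 11.4) and 11.2 in sham arrays (10.7 to 11.5), and 0 of 5 passed. Of 4 macrophage markers, 3 rose in the diaphragm, with a mean of 6.44 to 7.96 in PDX arrays and 5.89 to 6.82 in sham arrays, and of 7 fibroblast markers 3 rose there, with 7.50 to 9.40 in PDX arrays and 7.72 to 8.50 in sham arrays. In the diaphragm 1 of 4 mesothelium markers rose and 1 of 4 adipocyte markers fell. Both erythroid markers measured rose in the tibialis anterior, with a mean of 3.57 to 8.42 in PDX arrays and 3.24 to 5.89 in sham arrays, as did 1 of 5 muscle fibre markers. The part of these markers in the results below was not tested.

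In the diaphragm, chaperone genes that changed were nearly all lower in tumour-bearing mice. The exchange factor Hsph1 had the largest fall, and 7 of 9 mitochondrial genes and 3 of 3 Hsp110 genes were lower. Here 18 of the 72 genes passed an adjusted p under 0.05 (limma, Benjamini-Hochberg over all 23185 genes, two-sided), 1 higher and 17 lower, where 5.89% of all genes were higher and 6.58% lower (12.5% in either direction). Without the dim probe sets, 24 of the 61 genes at or above the median passed, where 25.2% of 11886 genes did. The median difference of PDX minus sham was -0.080 log2 over the 72 genes and -0.0043 over all genes. Without the liver-high arrays, 10 of the 72 genes passed, all lower and all among the 18, where 6.20% of all genes passed in either direction. With each cohort's difference taken as 1 replicate, 9 passed, all lower, where 4.39% of all genes passed. With the mean of the hepatocyte markers as a covariate on all 29 arrays, 22 passed, 2 higher and 20 lower. They took in all 18 named above, and 15% of all genes passed there. In bulk muscle, fewer cells of a type and less RNA per cell cannot be told apart.

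The tibialis anterior had changes in both directions. All 3 Hsp110 genes, 3 of 8 small heat shock protein genes, 2 of 6 cytosolic Hsp70 genes, 2 of 9 mitochondrial genes and 1 of 12 class A and B J proteins fell. The rises were in 2 of the 12 class A and B J proteins, 2 of 10 genes of the endoplasmic reticulum and 3 of 21 other class C J proteins. Again 18 genes passed, 7 higher and 11 lower, against 6.32% and 6.53% of all genes (12.8% in either direction). After each array was centred on its median, 7 were higher and 7 lower, where 12.2% of all genes passed in either direction. Without the dim probe sets, 21 of the 61 genes at or above the median passed, where 29% of 11886 genes did. With the cohort as the replicate 4 of the 72 genes passed, 0 higher and 4 lower, so no rise in this muscle passed there. Of all genes, 4.84% passed in that setting. The median difference was -0.037 over the 72 genes and -0.0051 over all genes. With the mean of the tendon markers as a covariate, 0 of the 72 genes and 0 of all genes passed in limma, with 2 and 1073 at an unadjusted p under 0.05. The tendon marker mean was itself lower in PDX than in sham arrays (medians 3.71 and 4.89), so this fit cannot well separate it from the tumour effect. The part of the tendon and fibroblast signal in the values of the tibialis anterior was not tested further. Of the 72 genes, 9 passed as lower in both muscles (2.36% of all genes did), 8 as lower in the diaphragm without passing in the tibialis anterior (4.14%), and 2 as lower in the tibialis anterior without passing in the diaphragm (3.71%).

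**Figure D1:**
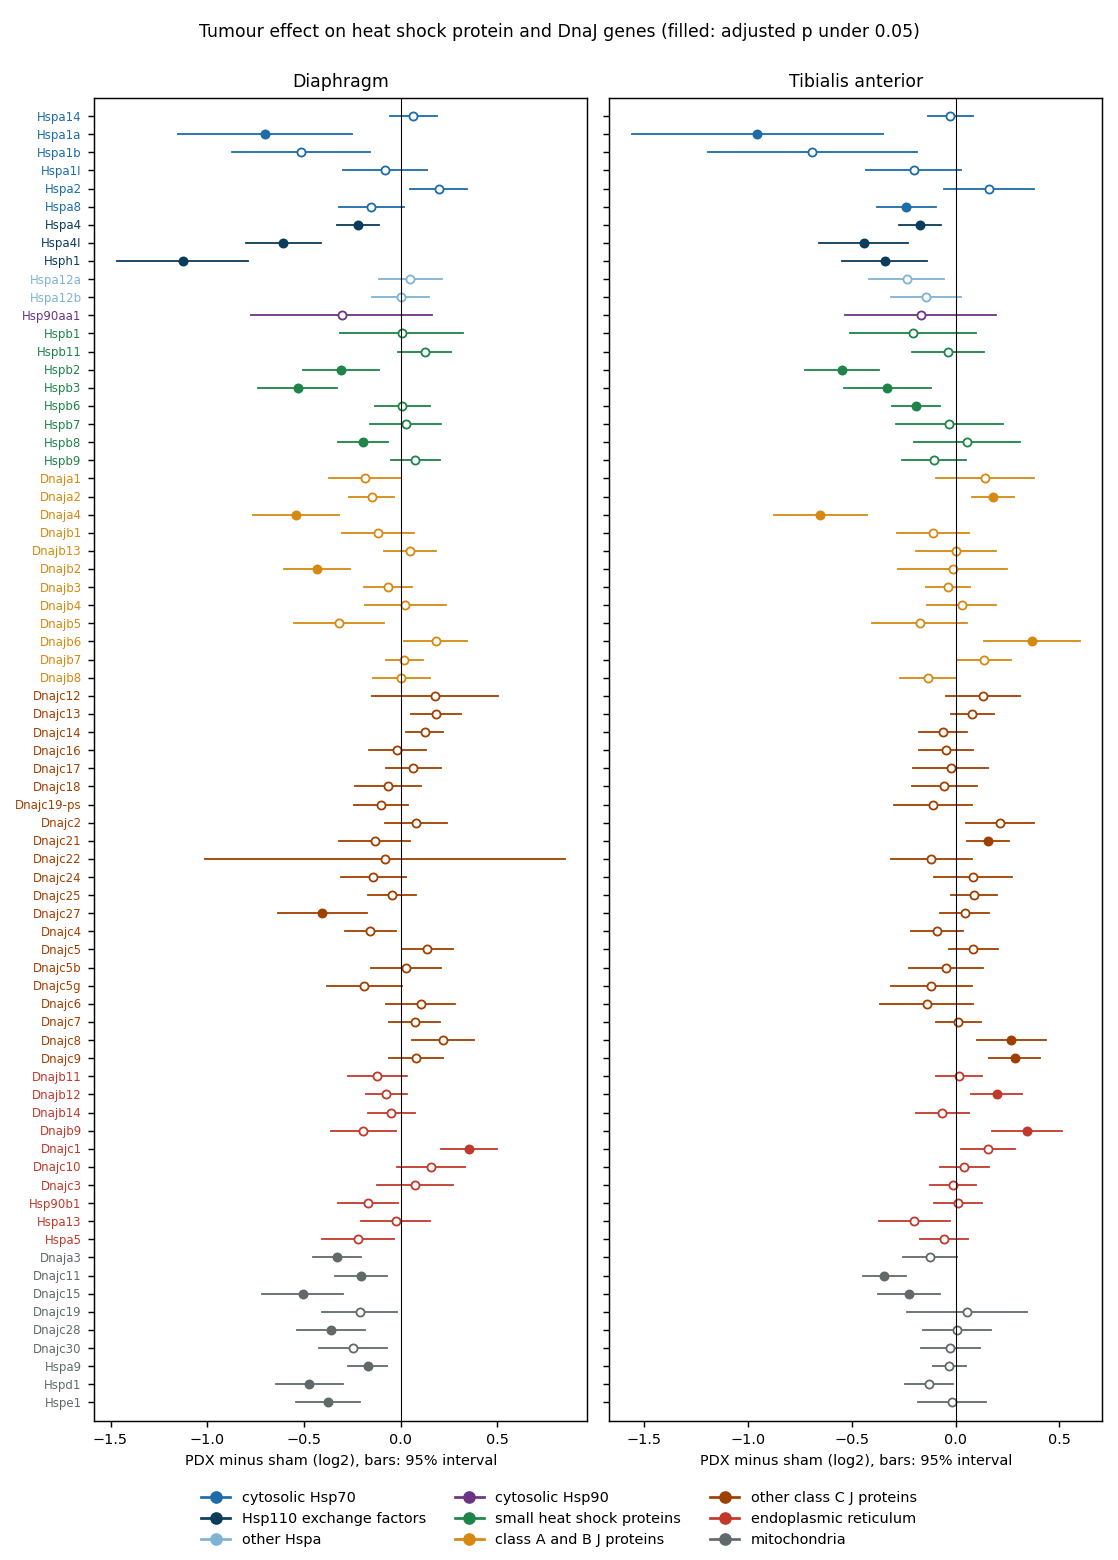
Log2 difference of PDX minus sham (horizontal axis) for each of the 72 genes, in the diaphragm (left) and the tibialis anterior (right), averaged equally over 4 cohorts. Bars are 95% intervals, filled points passed an adjusted p under 0.05, and colours give the role. The 3 Hsp110 genes lie left of 0 with filled points in both muscles, and 7 of the 9 mitochondrial genes do so in the diaphragm.

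RNA of the Hsp110 proteins, which release ADP from Hsp70 and keep aggregated clients soluble, was lower in both muscles, 3 of 3 genes in each. Hsph1 ranged over 4.82, 5.84 and 7.17 (lowest, median, highest log2 value) in PDX diaphragms, against 6.35, 7.23 and 7.76 in sham diaphragms. Every PDX diaphragm lay below every sham diaphragm of its cohort in 3 of 4 cohorts. Hsph1 thus fell by 1.13 ± 0.16 log2 units (SE), to 0.458 of the sham level, with an adjusted p of 6.79e-05 by limma. The fall measured 1.02, 0.61, 1.72 and 1.16 units in cohorts 1 to 4, and the liver-poor value was -0.99 ± 0.19 (adjusted p = 0.0104). Hsph1 in the tibialis anterior ranged over 6.06, 6.47 and 7.63 in PDX arrays and 6.47, 6.75 and 7.27 in sham arrays. These groups overlap, and the cohorts were split: -0.78 in cohort 1 and -0.79 in cohort 3, but 0.13 in cohort 2 and 0.08 in cohort 4. The mean difference was -0.34 ± 0.10 (limma adjusted p = 0.0216), and the call was lost without cohort 1 (-0.19, adjusted p = 0.415), without cohort 3 (-0.19, adjusted p = 0.40), in an additive cohort model (adjusted p = 0.0878) and with the spread shared over both muscles (adjusted p = 0.110).

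Hspa4l, the exchange factor also called Apg-1, ranged over 5.28, 5.61 and 6.13 in PDX diaphragms and 5.60, 6.26 and 6.74 in sham diaphragms. All PDX arrays were below all sham arrays in 3 of 4 cohorts. The gene fell by 0.61 ± 0.09 in the diaphragm (adjusted p = 0.000123), and the liver-poor value was -0.60. The tibialis anterior values were 4.12, 4.75 and 5.22 in PDX arrays and 4.69, 5.34 and 5.64 in sham arrays, and it fell by 0.44 ± 0.10 (limma adjusted p = 0.00428). The differences in cohorts 1 to 4 were -0.48, -0.22, -0.85 and -0.87 in the diaphragm and -0.66, -0.18, -0.57 and -0.36 in the tibialis anterior, all of the same sign. Without cohort 1 the call of Hspa4l in the tibialis anterior was lost (limma adjusted p = 0.0911). Hspa4, the remaining member of the family, shifted less: it fell by 0.22 ± 0.05 in the diaphragm and by 0.17 ± 0.05 in the tibialis anterior (limma adjusted p = 0.00645 and 0.0178), and in the tibialis anterior the cohorts gave -0.19, -0.13, -0.34 and -0.038. Its PDX and sham values overlapped in both muscles, and its diaphragm call was lost without cohort 3 (adjusted p = 0.0922). That call was also lost in liver-poor arrays, where the value was -0.23 ± 0.08. Its call in the tibialis anterior was lost after arrays were centred on their median (adjusted p = 0.0632) and without cohort 1, 2 or 3 (adjusted p = 0.0766, 0.0632 and 0.245).

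Among the 6 cytosolic Hsp70 genes, 1 fell in the diaphragm and 2 in the tibialis anterior, and none rose. Hspa1a, the heat-inducible Hsp70, ranged over 4.73, 5.86 and 7.42 in PDX diaphragms and 5.61, 6.76 and 8.13 in sham diaphragms. Its tibialis anterior values were 3.33, 4.65 and 6.06 in PDX arrays and 4.17, 6.0 and 7.45 in sham arrays. The groups overlap in both muscles, and the spread within groups was the widest of the Hsp70 genes that passed. Hspa1a fell by 0.70 ± 0.22 in the diaphragm (limma adjusted p = 0.0349) and by 0.96 ± 0.30 in the tibialis anterior (adjusted p = 0.0300). Cohorts 1 to 4 gave -0.63, -0.31, -0.43 and -1.43 in the diaphragm and -1.13, -0.25, -1.54 and -0.91 in the tibialis anterior. The diaphragm call was lost in 12 of 29 fits that each left out 1 array and in liver-poor arrays (-0.31 ± 0.27, adjusted p = 0.608). The call in the tibialis anterior was lost in 9 of 29 such fits, with adjusted p up to 0.0681. It was also lost there without cohort 1 or 3 (limma adjusted p = 0.146 and 0.113). The diaphragm call was also lost without cohort 1, 3 or 4 (limma adjusted p = 0.0667, 0.0894 and 0.297).

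Hspa1b is a near-identical copy of Hspa1a, and signal of the pair may be shared between their probe sets, so both are uncertain as single genes. Hspa1b did not pass, with -0.51 ± 0.17 in the diaphragm (limma adjusted p = 0.0524) and -0.69 ± 0.25 in the tibialis anterior (adjusted p = 0.0648). Hspa8, the constitutive Hsp70 of every cell, ranged over 8.67, 9.15 and 9.62 in PDX tibialis anterior and 9.06, 9.41 and 9.68 in sham. It fell there by 0.24 ± 0.07 (adjusted p = 0.0205), carried by cohorts 1 and 3 (-0.59 and -0.50) against 0.0027 and 0.13 in cohorts 2 and 4. Without PDX array 2 of cohort 1 the value for Hspa8 was -0.21 with an adjusted p of 0.0535. Hspa8 also lost its call without cohort 1 or 3 (limma adjusted p = 0.442 and 0.317). In the diaphragm it did not pass (-0.15 ± 0.08, adjusted p = 0.283). Hspa14, Hspa1l and Hspa2 passed in neither muscle. Hspa2, best known from the testis, came nearest with 0.20 ± 0.07 in the diaphragm (adjusted p = 0.0738). Neither Hspa12a nor Hspa12b, distant relatives of Hsp70, passed in either muscle.

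**Figure D2:**
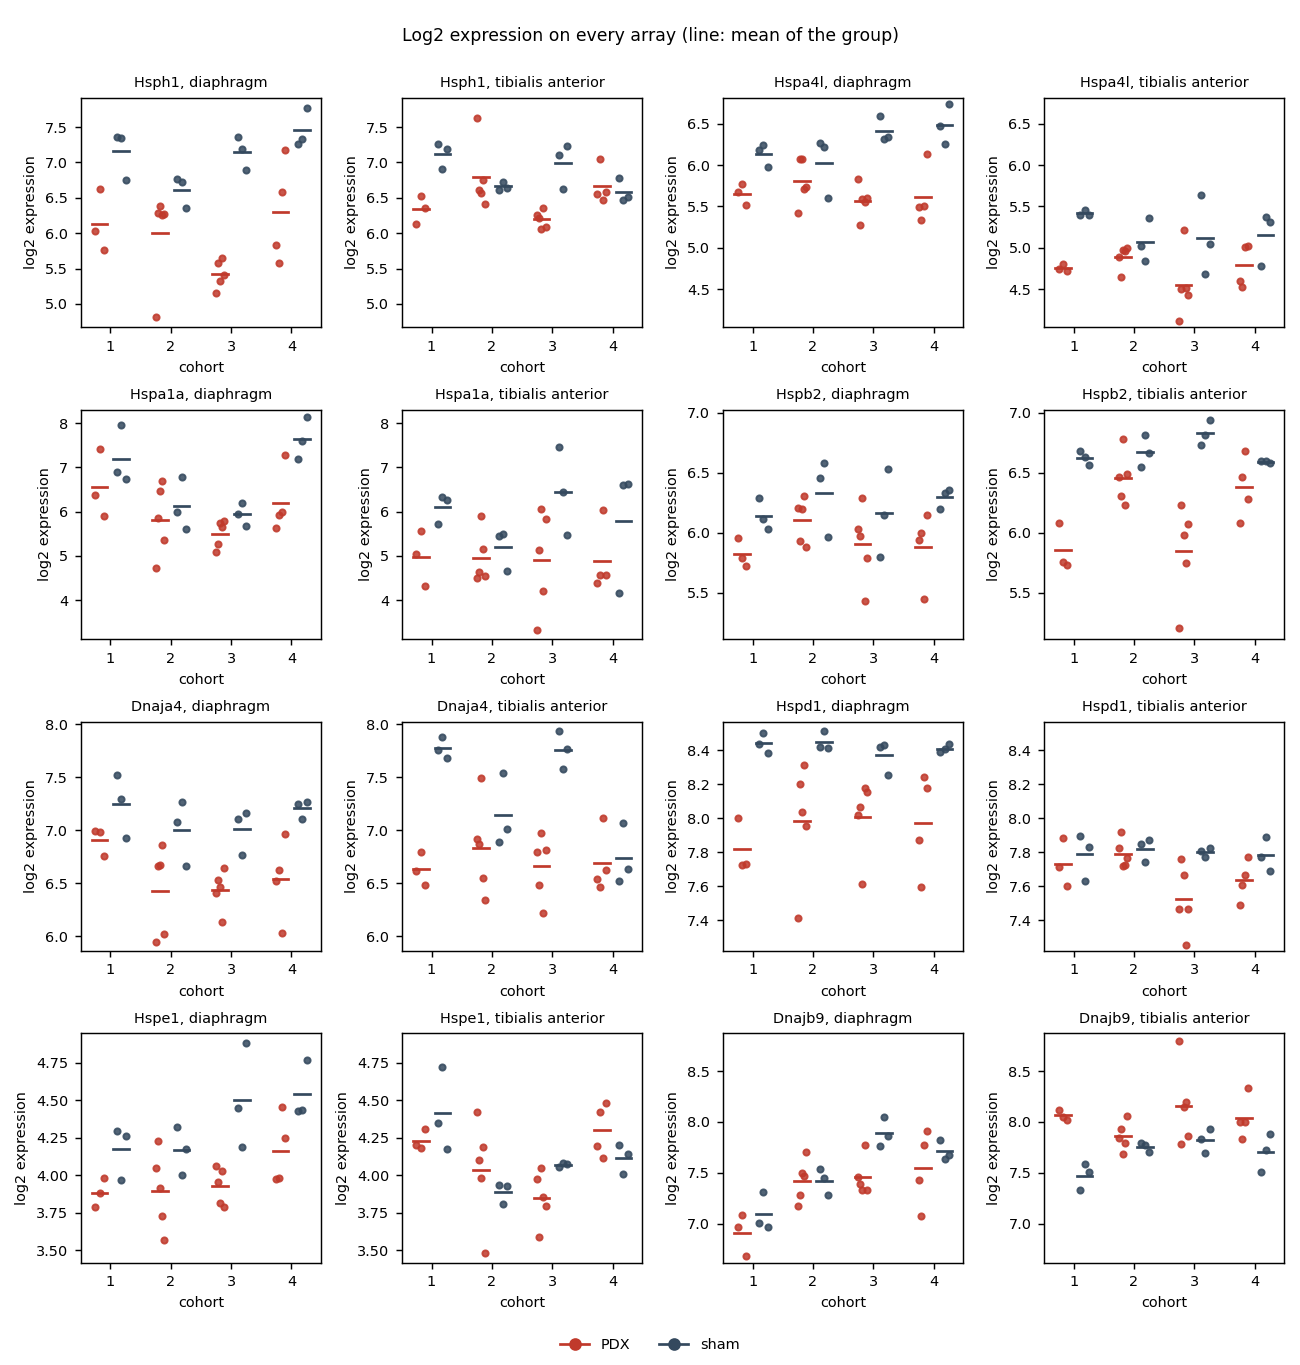
Log2 expression of 8 genes on every array, by cohort (horizontal axis), with PDX (red) left of sham (blue) and the diaphragm left of the tibialis anterior. Lines are group means. Hspd1 lies lower on every PDX diaphragm array than on any sham diaphragm array of the same cohort, while Hspa1a overlaps between the groups in every diaphragm cohort.

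Of the 8 small heat shock protein genes, 3 fell in each muscle. Hspb2 and Hspb3, whose products form a complex with each other in muscle, were the shared ones. Hspb3 ranged over 4.49, 5.11 and 5.63 in PDX diaphragms and 5.32, 5.70 and 6.12 in sham diaphragms. It fell by 0.53 ± 0.10 there (limma adjusted p = 0.000723), with cohort values of -0.47, -0.64, -0.35 and -0.67 and a liver-poor value of -0.51. Hspb3 in the tibialis anterior spanned 4.60 to 6.15 in PDX arrays and 5.59 to 6.45 in sham arrays, and its fall was 0.33 ± 0.10 (adjusted p = 0.0311). The values of cohorts 1 to 4 were -0.28, -0.25, -0.68 and -0.11. That call was lost in 6 of 29 fits without 1 array (adjusted p up to 0.0613) and when arrays were centred on their median. Leaving out cohort 1, 2 or 3 also lost it (limma adjusted p = 0.111, 0.0934 and 0.0568).

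Hspb2 ranged over 5.20, 6.23 and 6.78 in PDX tibialis anterior and 6.55, 6.65 and 6.94 in sham. The PDX arrays of cohorts 1 and 3 lay wholly below their sham arrays, and those of cohorts 2 and 4 overlapped them. Hspb2 fell there by 0.55 ± 0.09 (limma adjusted p = 8.13e-05), with cohort values of -0.77, -0.22, -0.98 and -0.22. In the diaphragm it ranged over 5.43, 5.95 and 6.31 in PDX arrays and 5.80, 6.24 and 6.58 in sham arrays, and it fell by 0.31 ± 0.10 (adjusted p = 0.0348, cohort values -0.32, -0.23, -0.26 and -0.41), a call lost in 10 of 29 fits without 1 array (adjusted p up to 0.0782). Its diaphragm call was also lost without cohort 1, 2 or 4 (limma adjusted p = 0.136, 0.0868 and 0.144). The liver-poor value of Hspb2 was -0.42 ± 0.10 (adjusted p = 0.0202).

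Hspb6 and Hspb8 passed in 1 muscle each. Hspb6, a small heat shock protein that binds actin regulators, spanned 11.24 to 11.91 in PDX tibialis anterior and 11.44 to 12.22 in sham, and it fell by 0.19 ± 0.06 (limma adjusted p = 0.0230). Its cohort values were -0.39, -0.18, -0.18 and -0.011. The call was lost without PDX array 3 of cohort 1 (adjusted p = 0.0562) and without sham array 2 of cohort 2 (adjusted p = 0.0602). Without cohort 1 or 3 it was lost as well (limma adjusted p = 0.343 and 0.0693). Hspb8, the partner of Bag3 in the disposal of damaged sarcomere proteins, spanned 7.93 to 8.53 in PDX diaphragms and 8.15 to 8.91 in sham diaphragms. It fell by 0.19 ± 0.06 (adjusted p = 0.0406), a call lost in 16 of 29 fits without 1 array (adjusted p up to 0.0918). The call was also lost in liver-poor arrays, where the value was -0.24 ± 0.09. Leaving out cohort 1, 2 or 3 lost that call too (limma adjusted p = 0.365, 0.114 and 0.0885). Hspb1 and Hspb7 did not pass: Hspb1, the mouse form of human Hsp27, differed by 0.0053 ± 0.15 in the diaphragm and -0.21 ± 0.15 in the tibialis anterior, and Hspb7, which binds filamin C, by 0.028 ± 0.089 and -0.032 ± 0.13. Hspb9 and Hspb11 passed in neither muscle.

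Class A and B J proteins of the cytosol and nucleus, which bring clients to Hsp70, moved in both directions: of 12 genes, 2 fell in the diaphragm, and 1 fell and 2 rose in the tibialis anterior. Dnaja4 ranged over 5.94, 6.62 and 7.0 in PDX diaphragms and 6.66, 7.14 and 7.52 in sham diaphragms. It was lower in every cohort (-0.34, -0.57, -0.58 and -0.67) and fell by 0.54 ± 0.11 (limma adjusted p = 0.00133), with a liver-poor value of -0.59. Its tibialis anterior values were 6.22, 6.63 and 7.49 in PDX arrays and 6.52, 7.56 and 7.94 in sham arrays, and it fell by 0.65 ± 0.11 (adjusted p = 0.000136). The fall of Dnaja4 there measured 1.14 in cohort 1 and 1.10 in cohort 3, where groups did not overlap, but 0.31 in cohort 2 and 0.055 in cohort 4, where they did.

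Dnajb2, a J protein with ubiquitin-binding motifs that in humans is mutated in motor neuron disease, ranged over 4.40, 5.01 and 5.43 in PDX diaphragms and 4.86, 5.52 and 5.74 in sham diaphragms. It fell by 0.43 ± 0.08 (limma adjusted p = 0.000919), with full separation in 3 of 4 cohorts and cohort values of -0.43, -0.17, -0.45 and -0.68. In liver-poor arrays the value was -0.36 ± 0.13 (adjusted p = 0.108). Dnajb6, an anti-aggregation J protein mutated in a human limb-girdle muscular dystrophy, ranged over 4.18, 4.81 and 6.08 in PDX tibialis anterior and 4.08, 4.55 and 4.73 in sham. It rose by 0.37 ± 0.11 (adjusted p = 0.0276), by 0.91 in cohort 3 and by 0.18 to 0.20 in the others, and the call was lost without cohort 2, 3 or 4 and in 5 of 29 fits without 1 array (adjusted p up to 0.0643). Dnaja2, a general partner of Hsc70, ranged over 8.49, 8.68 and 9.05 in PDX tibialis anterior and 8.36, 8.52 and 8.89 in sham, and it rose by 0.18 ± 0.05 (adjusted p = 0.0123). Its cohort values were 0.27, 0.067, 0.22 and 0.17, and the call was lost without cohort 1, 3 or 4 (limma adjusted p = 0.133, 0.0590 and 0.0579).

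The other class A and B genes passed in neither muscle. Dnajb1, the heat-inducible partner of Hsp70, spanned 5.04 to 6.2 in PDX diaphragms and 5.19 to 6.09 in sham diaphragms, with a difference of -0.12 ± 0.09 (limma adjusted p = 0.509). Dnaja1 differed by -0.18 ± 0.09 in the diaphragm and by 0.14 ± 0.12 in the tibialis anterior. Dnajb5 differed by -0.32 ± 0.11 in the diaphragm (adjusted p = 0.0647), and the remaining genes were Dnajb4 and the dim Dnajb3, Dnajb7, Dnajb8 and Dnajb13.

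RNA of the mitochondrial chaperones was lower together in the diaphragm: all 9 genes had a negative difference with an unadjusted p under 0.05 (limma). Of all genes, 23.5% had an unadjusted p under 0.05 there in either direction, and 36% did without the dim probe sets. The 9 genes had a median difference of -0.33, and 7 of them passed. Of the 9, 2 fell in the tibialis anterior, where the median was -0.031. Hspd1, the Hsp60 subunit of the folding chamber of the matrix, ranged over 7.41, 8.02 and 8.31 in PDX diaphragms and 8.25, 8.42 and 8.51 in sham diaphragms. In each of the 4 cohorts every PDX array was below every sham array. Hspd1 fell by 0.47 ± 0.08 (limma adjusted p = 0.000468), by 0.62, 0.47, 0.36 and 0.44 in cohorts 1 to 4, and the liver-poor value was -0.47 ± 0.11. In the tibialis anterior it ranged over 7.25, 7.72 and 7.92 in PDX arrays and 7.63, 7.82 and 7.90 in sham arrays, which overlap, and it did not pass (-0.13 ± 0.06, adjusted p = 0.148).

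Hspe1, the lid of that chamber, spanned 3.57 to 4.46 in PDX diaphragms and 3.97 to 4.88 in sham diaphragms. Its level lay close to the median of all probe sets. It fell by 0.38 ± 0.08 (limma adjusted p = 0.00237), with -0.29, -0.27, -0.57 and -0.38 in cohorts 1 to 4, and the liver-poor value was larger, -0.57 ± 0.10. Hspe1 in the tibialis anterior differed by -0.018 ± 0.079. Hspa9, the Hsp70 of the matrix that also pulls proteins in through the inner membrane, spanned 9.82 to 10.30 in PDX diaphragms and 10.10 to 10.35 in sham diaphragms. It fell by 0.17 ± 0.05 (limma adjusted p = 0.0229). The call was lost without PDX array 2 of cohort 1 (adjusted p = 0.0522) and in liver-poor arrays (-0.19 ± 0.07). Leaving out cohort 1, 2 or 4 also lost it (limma adjusted p = 0.170, 0.107 and 0.0637).

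The J proteins of the mitochondrion went the same way. Dnajc15, a J protein of the inner membrane, ranged over 5.89, 6.24 and 6.84 in PDX diaphragms and 6.47, 6.76 and 7.58 in sham diaphragms, and it fell by 0.51 ± 0.10 (limma adjusted p = 0.00141), with cohort values of -0.50, -0.40, -0.65 and -0.49. Dnaja3, the matrix partner of Hspa9, ranged over 6.99, 7.21 and 7.44 in PDX diaphragms and 7.33, 7.52 and 7.88 in sham diaphragms, and it fell by 0.33 ± 0.06 (adjusted p = 0.000641) with full separation in 3 of 4 cohorts. Both kept their call in liver-poor arrays, at -0.63 ± 0.11 for Dnajc15 and -0.36 ± 0.09 for Dnaja3. Dnajc28 fell by 0.36 ± 0.09 (adjusted p = 0.00603) and Dnajc11, a protein of the complex that shapes the cristae, by 0.20 ± 0.07 (adjusted p = 0.0427). These 2 calls were lost in liver-poor arrays (-0.28 ± 0.10 and -0.20 ± 0.09), and that of Dnajc11 also in 17 of 29 fits without 1 array. Leaving out any 1 cohort lost the call of Dnajc11 (limma adjusted p up to 0.228). Leaving out cohort 4 lost that of Dnajc28 (limma adjusted p = 0.0628). Dnajc19 (-0.21 ± 0.09) and Dnajc30 (-0.25 ± 0.09) did not pass, at adjusted p of 0.159 and 0.0588.

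Dnajc11 and Dnajc15 were the mitochondrial genes that fell in the tibialis anterior. Dnajc11 ranged over 5.74, 6.06 and 6.30 in PDX arrays and 6.19, 6.32 and 6.59 in sham arrays, with full separation in 3 of 4 cohorts. It fell by 0.34 ± 0.05 (limma adjusted p = 2.95e-05), the smallest p of the 72 genes in that muscle, and the cohorts gave -0.47, -0.19, -0.53 and -0.18. Dnajc15 fell by 0.23 ± 0.07 (limma adjusted p = 0.0373), with cohort values of -0.25, -0.059, -0.42 and -0.18. That call was lost in 12 of 29 fits without 1 array (adjusted p up to 0.0814). Leaving out any 1 cohort also lost it (limma adjusted p up to 0.149).

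**Figure D3:**
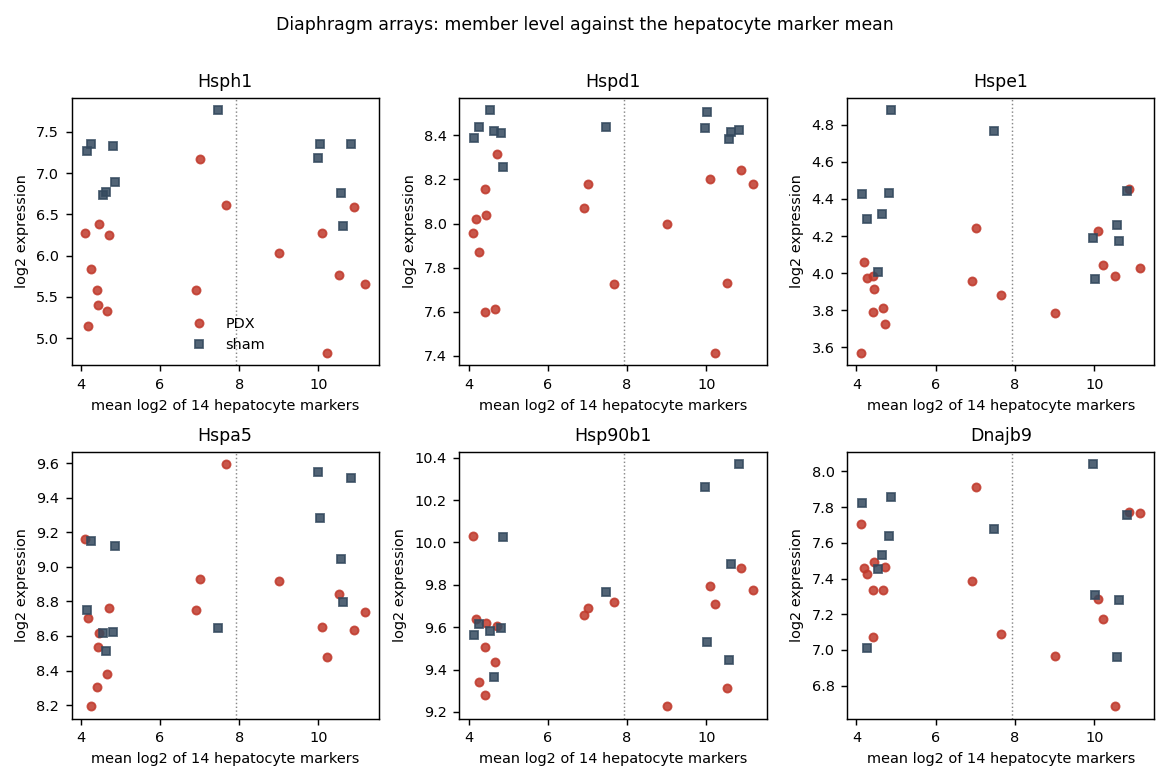
Log2 expression of 6 genes (vertical axes) on each of the 29 diaphragm arrays against the mean log2 value of 14 hepatocyte markers (horizontal axes), PDX as red circles and sham as blue squares. Arrays right of the dotted line are the 11 liver-high ones. Hspd1 and Hsph1 are on average lower in PDX on both sides of the line, and the highest sham values of Hspa5 and Hsp90b1 lie on its right.

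The chaperones of the endoplasmic reticulum changed in few cases: of 10 genes, 1 rose in the diaphragm, 2 rose in the tibialis anterior and none fell in either. Dnajc1, a J protein of its membrane that binds ribosomes, ranged over 5.96, 6.28 and 6.66 in PDX diaphragms and 5.56, 5.98 and 6.19 in sham diaphragms. It rose by 0.36 ± 0.07 (limma adjusted p = 0.00124), the sole rise among the 72 genes in that muscle, and the liver-poor value was 0.33 ± 0.10 (adjusted p = 0.0669). Dnajb9, which hands misfolded proteins to degradation, ranged over 7.69, 8.0 and 8.80 in PDX tibialis anterior and 7.33, 7.71 and 7.94 in sham. It rose by 0.34 ± 0.08 (adjusted p = 0.00486), by 0.59, 0.11, 0.34 and 0.34 in cohorts 1 to 4. Without cohort 1 that call was lost (limma adjusted p = 0.136). Dnajb12, an anchor of Hsp70 at the membrane, rose by 0.20 ± 0.06 in the tibialis anterior (limma adjusted p = 0.0282). Its cohort values were 0.34, 0.080, 0.30 and 0.069. The call was lost in 7 of 29 fits without 1 array (adjusted p up to 0.0649). Leaving out cohort 1 or 3 also lost it (limma adjusted p = 0.254 and 0.168).

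The main folding factors of this compartment did not pass. Hspa5, its Hsp70, ranged over 8.19, 8.71 and 9.60 in PDX diaphragms and 8.51, 8.92 and 9.55 in sham diaphragms, a difference of -0.22 ± 0.09 (limma adjusted p = 0.125) that was 0.00060 ± 0.12 in liver-poor arrays. Hsp90b1, its Hsp90, ranged over 9.23, 9.64 and 10.03 in PDX diaphragms and 9.36, 9.61 and 10.37 in sham diaphragms, a difference of -0.17 ± 0.08 (adjusted p = 0.172). The tibialis anterior values of Hspa5 differed by -0.057 ± 0.055 and Hsp90b1 by 0.011 ± 0.057. Hspa13, Dnajb11, Dnajb14, Dnajc3 and Dnajc10 passed in neither muscle.

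Of the 21 other class C J proteins, 3 rose in the tibialis anterior and 1 fell in the diaphragm. Dnajc9, a histone chaperone, ranged over 5.06, 5.52 and 5.91 in PDX tibialis anterior and 4.94, 5.22 and 5.55 in sham, and it rose by 0.28 ± 0.06 (limma adjusted p = 0.00159), with 0.0014 in cohort 2 and 0.32 to 0.43 in the others. Dnajc8, which associates with the splicing machinery, rose by 0.27 ± 0.08 (adjusted p = 0.0263), with 0.31, 0.094, 0.26 and 0.41 in cohorts 1 to 4. Its call was lost without PDX array 3 of cohort 1 (adjusted p = 0.0522), sham array 2 of cohort 2 (0.0549) or sham array 2 of cohort 4 (0.0628). Dnajc8 also lost its call without cohort 1, 3 or 4 (limma adjusted p = 0.140, 0.0728 and 0.113). Dnajc21, a factor of ribosome assembly, rose by 0.16 ± 0.05 (limma adjusted p = 0.0325). Its cohort values were 0.17, 0.045, 0.12 and 0.29. The call was lost in 8 of 29 fits without 1 array (adjusted p up to 0.0782). Leaving out cohort 1, 3 or 4 also lost it (limma adjusted p = 0.150, 0.0531 and 0.298).

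Dnajc27, a J protein joined to a small GTPase, ranged over 5.85, 6.62 and 6.93 in PDX diaphragms and 6.46, 6.91 and 7.15 in sham diaphragms. It fell by 0.41 ± 0.11 (limma adjusted p = 0.0162), with -0.36, -0.45, -0.23 and -0.58 in cohorts 1 to 4, and the liver-poor value was -0.47 ± 0.12. Without cohort 1 or 4 that call was lost (limma adjusted p = 0.0611 and 0.0757). Dnajc13, a J protein of endosomes, came close in the diaphragm with 0.18 ± 0.06 (adjusted p = 0.0565), and Dnajc2, a ribosome-bound J protein, in the tibialis anterior with 0.21 ± 0.08 (adjusted p = 0.0804). The rest, Dnajc4, Dnajc5, Dnajc5b, Dnajc5g, Dnajc6, Dnajc7, Dnajc12, Dnajc14, Dnajc16, Dnajc17, Dnajc18, Dnajc19-ps, Dnajc22, Dnajc24 and Dnajc25, passed in neither muscle.

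Hsp90aa1, the inducible cytosolic Hsp90, was dim on these arrays, with 1.88 to 3.8 in PDX diaphragms and 2.32 to 4.08 in sham diaphragms. It did not pass, with -0.30 ± 0.23 in the diaphragm (limma adjusted p = 0.483) and -0.17 ± 0.18 in the tibialis anterior (adjusted p = 0.654). Hsp90ab1 was not analysed here.

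**Figure D4:**
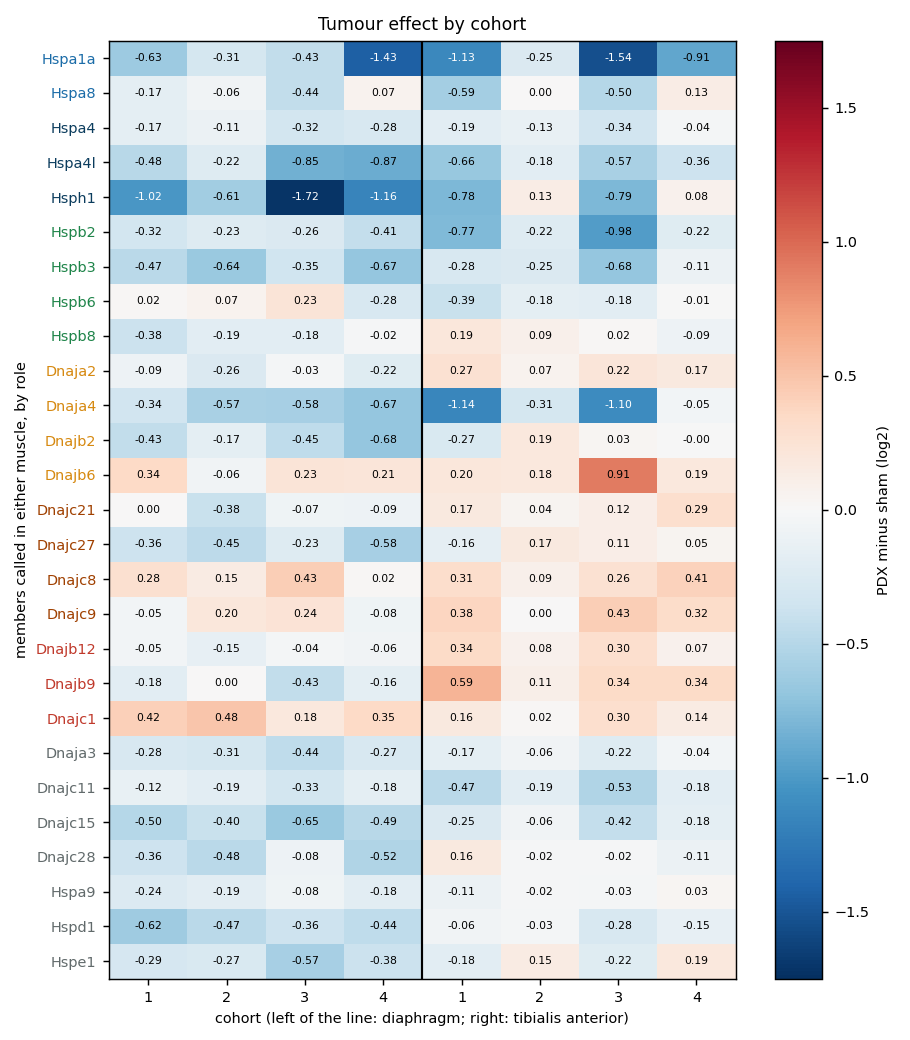
Log2 difference of PDX minus sham in each cohort (columns, diaphragm left of the line and tibialis anterior right of it) for the 27 genes that passed in either muscle (rows, by role). Blue is lower in PDX and red higher. In the diaphragm the blue of Hsph1, Hspa4l, Hspb3, Dnaja4, Dnajc15 and Hspd1 runs through all 4 cohorts, and in the tibialis anterior that of Hsph1, Hspa8, Hspb2 and Dnaja4 is deepest in cohorts 1 and 3.

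Whether the tumour effect differed between the muscles was tested as the diaphragm effect minus the effect in the tibialis anterior. Of the 72 genes, 7 passed, 0 of them higher and all 7 lower in the diaphragm, against 3.66% higher and 2.67% lower among all genes (6.33% in either direction). Without the dim probe sets, 9 of the 61 genes at or above the median passed, where 13.9% of 11886 genes did. Hsph1 had the widest gap, -1.13 in the diaphragm against -0.34 in the tibialis anterior, a difference of -0.79 ± 0.20 (limma adjusted p = 0.00885). Dnajb9 followed with -0.19 in the diaphragm against 0.34, a difference of -0.54 ± 0.12 (adjusted p = 0.00200). Dnajc27 differed by -0.45 ± 0.13, Hspe1 by -0.36 ± 0.11, Hspd1 by -0.34 ± 0.10, Dnaja2 by -0.33 ± 0.07 and Dnajb12 by -0.27 ± 0.08. For Dnaja2, Dnajb9 and Dnajb12 the effect was positive in the tibialis anterior and negative, without passing, in the diaphragm.

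Several of these 7 calls depended on the arrays used. Without the liver-high arrays 4 of the 72 genes passed, Dnaja2, Dnajb9, Dnajc27 and Hspe1, where 5.24% of all genes passed. Hsph1 (-0.65 ± 0.21), Hspd1 (-0.35 ± 0.11) and Dnajb12 (-0.27 ± 0.10) did not pass there. With the hepatocyte marker mean as a covariate 9 genes passed, among them all 7, where 7.52% of all genes passed. The call of Hspe1 was lost in 32 of 58 fits without 1 array, with adjusted p up to 0.0846. With the cohort as the replicate, 0 of the 72 genes passed in limma and 12 (16.7%) had an unadjusted p under 0.05, against 15.2% of all genes. The other mitochondrial genes did not pass this test. Of them Dnajc28 came closest with -0.37 ± 0.12 (adjusted p = 0.0538).

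The cohorts were compared by a moderated F test of equal effects. None of the 72 genes passed in either muscle (limma), where 0.00431% of all genes did so in the diaphragm and 0.0129% in the tibialis anterior, and 12 and 7 of the 72 genes (16.7% and 9.72%) had an unadjusted p under 0.05, against 7.44% and 7.33% of all genes. The smallest p in the diaphragm belonged to Hspb9, Hsp90b1 and Dnajb8 (0.00362, 0.00454 and 0.00750 unadjusted, adjusted p = 0.435, 0.445 and 0.482). In the tibialis anterior they belonged to Hsph1, Hspa8 and Dnaja4 (0.00163, 0.00183 and 0.00212 unadjusted, adjusted p = 0.304, 0.307 and 0.310). All 11 genes lowered in the tibialis anterior had lower values in cohorts 1 and 3 than in cohorts 2 and 4, as did 795 of the 1514 genes lowered among all (52.5%). This ordering was noticed in the values and has no test. Without cohort 1, 5 of the 72 genes passed in the tibialis anterior, and 6 without cohort 3, where 6.15% and 9.71% of all genes passed.

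Sham mice show how the muscles differ without a tumour. Of the 72 genes, 20 were higher and 22 lower in the sham diaphragm than in the sham tibialis anterior (adjusted p under 0.05, limma), against 15.2% and 24.5% of all genes (39.7% in either direction). Without the dim probe sets, 37 of the 61 genes at or above the median passed, where 53.4% of 11886 genes did. Of the 10 genes of the endoplasmic reticulum, 5 were higher and 1 was lower, and of the 21 other class C J proteins 4 were higher and 13 lower. Hsp90b1 ranged over 9.36, 9.61 and 10.37 in sham diaphragms and 8.66, 8.86 and 9.07 in sham tibialis anterior, without overlap, a difference of 0.88 ± 0.07 (adjusted p = 1.67e-14). Hspa5 was higher by 0.56 ± 0.08, Dnajc3, a J protein that works with Hspa5, by 0.43 ± 0.08 and Dnajc1 by 0.42 ± 0.07. The 3 genes whose promoters held the stress element of the endoplasmic reticulum, Hspa5, Hsp90b1 and Dnajc3, are among these.

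Hspa4l was higher by 1.07 ± 0.11 in the diaphragm (limma adjusted p = 3.54e-11), with 5.60, 6.26 and 6.74 in sham diaphragms and 4.69, 5.34 and 5.64 in sham tibialis anterior. Hspd1 ranged over 8.25, 8.42 and 8.51 in sham diaphragms and 7.63, 7.82 and 7.90 in sham tibialis anterior, without overlap, and was higher by 0.62 ± 0.08 (adjusted p = 4.22e-09). Hspa1b was higher by 1.11 ± 0.24 and Hspa1a by 0.83 ± 0.29. Dnajc6, the dim auxilin, was higher by 0.45 ± 0.11 and Dnajb4 by 0.43 ± 0.10. On the lower side, Dnajc12, which in humans binds the aromatic amino acid hydroxylases, ranged over 4.62, 4.87 and 5.21 in sham diaphragms and 5.58, 5.82 and 6.17 in sham tibialis anterior, without overlap. It was lower by 0.97 on the log2 scale (difference -0.97 ± 0.14, adjusted p = 2.05e-07).

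Dnajb12 (-0.52 ± 0.06) and Dnaja2 (-0.41 ± 0.05) also did not overlap between the sham muscles, and Dnajc21 (-0.54 ± 0.08) overlapped by a single array at the edge. Hspb2 (-0.45 ± 0.10), Dnajb5 (-0.42 ± 0.12), Dnajc18 (-0.41 ± 0.09) and Hspb3 (-0.36 ± 0.11) were lower with overlap. Hspb6, Hspb7 and Hspb8 did not pass, at -0.14 ± 0.07, 0.23 ± 0.12 and -0.023 ± 0.11. With the hepatocyte marker mean as a covariate 29 of the 72 genes passed, 20 higher and 9 lower, against 26.7% of all genes. In liver-poor arrays 25 of the 72 genes passed, 16 higher and 9 lower, against 24.4% of all genes in either direction. The value of Hsp90b1 was then 0.82, that of Hspa4l 1.12, of Hspd1 0.59, of Hspa5 0.47, of Dnajc3 0.26 and of Dnajc12 -1.0, all past the threshold. Hspa1a (adjusted p = 0.144), Hspb2 (0.0653), Hspb3 (0.112), Dnajb5 (0.0518), Dnaja1 (0.185) and Dnajb1 (0.163) lost their call there.

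**Figure D5:**
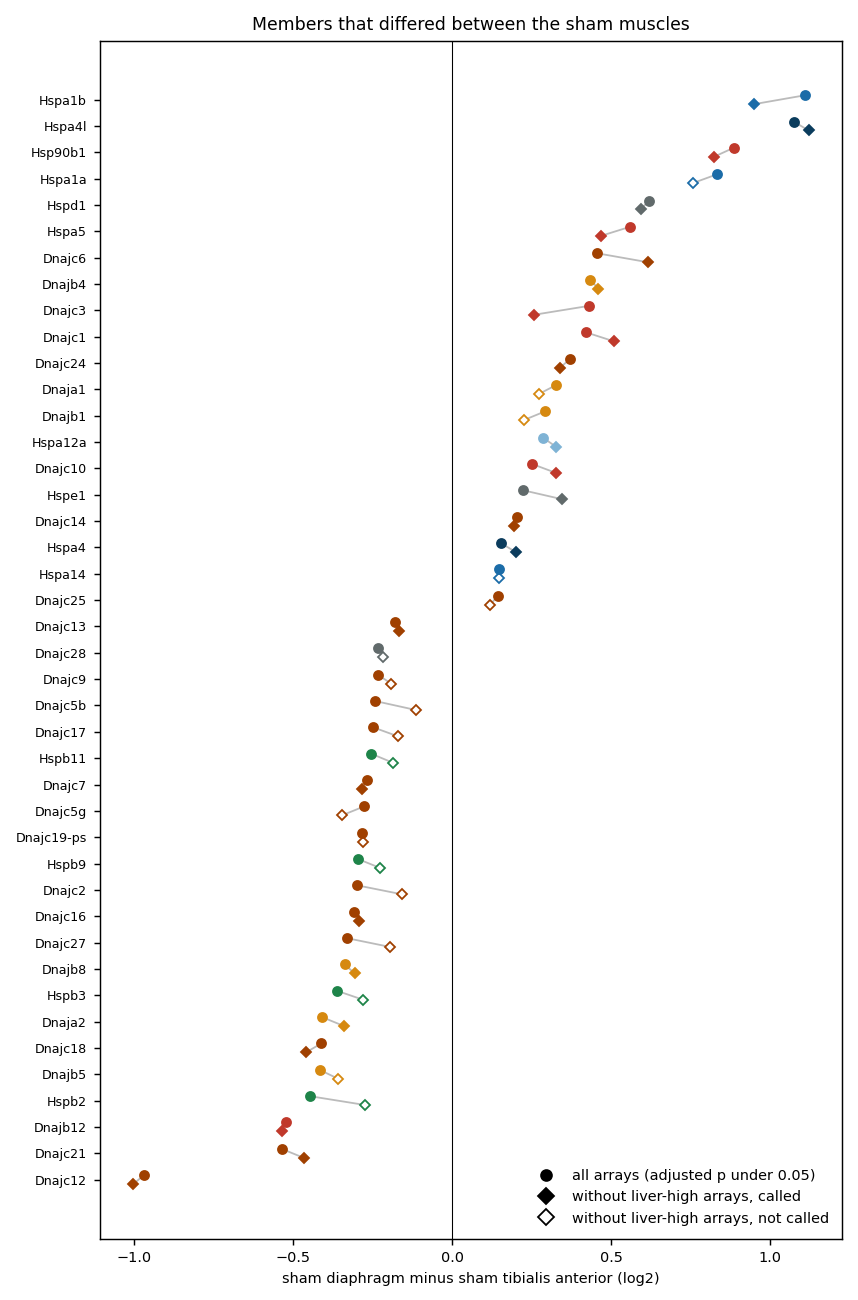
Log2 difference of sham diaphragm minus sham tibialis anterior (horizontal axis) for the 42 genes that passed (rows). Circles use all arrays, and diamonds leave out the liver-high diaphragm arrays, filled where the gene still passed. Hspa1b, Hspa4l and Hsp90b1 lie farthest right and Dnajc12 farthest left under both.

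Partners of these chaperones that are not Hsp or Dnaj genes were read from the same fit. Of 66 such genes, 1 was higher and 19 were lower in the diaphragm, and 8 were higher and 12 lower in the tibialis anterior, beside the shares of all genes given above (5.89% and 6.58% in the diaphragm, 6.32% and 6.53% in the tibialis anterior). In liver-poor diaphragms 1 was higher and 7 were lower, where 6.2% of all genes passed in either direction. Of the 15 Hsp90 co-chaperones, 9 were lower and 1 was higher in the diaphragm, and 3 were lower and 1 was higher in the tibialis anterior. In liver-poor diaphragms 5 of them were lower and 1 was higher, beside the same 6.2% of all genes. Chordc1 fell by 0.63 ± 0.08 in the diaphragm and by 0.39 ± 0.09 in the tibialis anterior. Stip1, which joins Hsp70 to Hsp90, averaged 6.79 ± 0.22 in PDX diaphragms (SD, n = 17) and 7.41 ± 0.25 in sham diaphragms (SD, n = 12) and fell by 0.62 ± 0.08 (limma adjusted p = 2.21e-05), against -0.16 ± 0.06 in the tibialis anterior. Ahsa2, which speeds the ATP cycle of Hsp90, fell by 0.46 ± 0.08 in the diaphragm and by 0.28 ± 0.06 in the tibialis anterior. Its diaphragm call was lost in liver-poor arrays (-0.30 ± 0.10). Fkbp5, a target of glucocorticoids, was the 1 that rose, by 1.53 ± 0.21 in the diaphragm and by 1.86 ± 0.23 in the tibialis anterior.

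Among 15 Hsp70 co-chaperones, 3 fell in the diaphragm, St13 (-0.35 ± 0.05), Bag3 (-0.33 ± 0.08) and Hspbp1 (-0.23 ± 0.07), and St13 kept its call in liver-poor arrays. In the tibialis anterior Hspbp1 (-0.31 ± 0.05), Bag2 (-0.27 ± 0.07) and Grpel2 fell and Bag6 rose (0.27 ± 0.05). Of 6 mitochondrial partners, the disaggregase Clpb (-0.45 ± 0.10) and the proteases Lonp1 (-0.34 ± 0.07) and Clpp (-0.25 ± 0.07) fell in the diaphragm, of which Lonp1 kept its call in liver-poor arrays, and the unfoldase Clpx rose in the tibialis anterior (0.30 ± 0.08). Of the 8 subunits of the cytosolic chaperonin TRiC, 3 fell in the diaphragm (Cct3, Cct6a and Cct8; none in liver-poor arrays), and 2 rose (Cct4 and Cct7) and 1 fell (Cct3) in the tibialis anterior. Cryab, a small heat shock protein of the lens and muscle, fell by 0.58 ± 0.11 in the tibialis anterior (limma adjusted p = 0.00072) and did not pass in the diaphragm (-0.19 ± 0.08, adjusted p = 0.102). Serpinh1, the collagen chaperone of fibroblasts, fell in the tibialis anterior by 0.78 ± 0.09, beside the fall of the fibroblast markers given above.

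For 16 folding and stress genes of the endoplasmic reticulum, 0 passed in the diaphragm (limma). There 2 of them had an unadjusted p under 0.05, as did 23.5% of all genes. In the tibialis anterior 2 rose, Atf4 and P4hb, and 3 fell, among them Pdia4 and Pdia6. Between the sham muscles 11 of these 16 were higher in the diaphragm and 1, Atf4, was lower, against 15.2% and 24.5% of all genes. The hepatocyte marker mean moved with this, with a median of 6.17 in sham diaphragms, 5 of them liver-high, and 3.62 in sham tibialis anterior. In liver-poor arrays 10 of the 16 were higher and 1 was lower, where 24.4% of all genes passed in either direction. Pdia4 had the largest of these differences, 1.39, and 1.06 ± 0.14 in liver-poor arrays. Of 3 heat shock factor genes, Hsf2 fell in the diaphragm by 0.26 ± 0.07 (adjusted p = 0.0193, and 0.172 in liver-poor arrays) and Hsf4 rose in the tibialis anterior by 0.20 ± 0.05 (adjusted p = 0.00980). Hsf1 was not analysed here.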

How the data were processed

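The authors deposited log2 values for 25206 probe sets and 58 arrays. The submitters' processing notes name RMA, affy 1.36.1 and R 2.15.1, and the range of the values shows the log2 scale. Probe set definitions and genome build: not given in the sources used here. Groups were taken from the labels. Depth does not apply, and the number of arrays limits the precision.

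The 72 genes, the role, partner and marker lists and the naming rule were chosen with earlier results of these data known. All 72 genes are accounted for. Cohort values are given for up to 10 genes per direction and muscle that passed with 1 sign in all 4 cohorts (and for Hsph1 and Hspa8 in the tibialis anterior, chosen after their values were seen), and up to 8 genes per direction are named for the comparisons of muscles and 4 per partner list. Dnajc1 and Dnajc3 were named for the sham muscles after their values were seen. Alternatives were scaling, filters, array weights, marker covariates, blocks and leaving out arrays or cohorts. limma 3.58.1 in R 4.3.3 fitted each muscle with 8 group means, and PDX minus sham was averaged equally over 4 cohorts. The muscles were compared in a fit of 58 arrays with 16 means. A gene passed at a Benjamini-Hochberg adjusted p under 0.05 over 23185 genes, without a filter. Lists were counted, not tested. Scripts were tested on simulated data. Whether equal sample numbers mark the same animal was not settled. Across muscles, 4 of 29 pairs correlated over 0.1. Of the 29 tibialis anterior arrays, 13 correlated best, within the matching diaphragm group, with the array of their own number. The main fits took no pairing. The liver settings for the diaphragm were partly added after seeing the data: those for the comparison of the muscles, of the sham muscles and of the partner genes.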

Additional observations from a re-analysis of the deposited data

Results flagged for a closer look

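In 12 of 162 groups of 4 or 5 arrays examined for 27 genes, 1 array stood apart from the rest by Dixon's test, where chance gives about 5%, or 8.1 groups. Among PDX diaphragms, array 1 of cohort 2 was lowest for Hsph1 (4.82, the others 6.25 to 6.39) and Dnajb2 (4.65, the others 4.97 to 5.06), and it is a liver-high array. Array 2 of cohort 2, also liver-high, was lowest for Hspa8 (9.22, the others 9.46 to 9.53). In cohort 3, array 4, also liver-high, was lowest for Dnaja2 (7.72, the others 7.97 to 8.03), Dnajc27 (6.15, the others 6.62 to 6.72) and Dnajc28 (4.61, the others 5.03 to 5.14), array 3 was lowest for Hspd1 (7.61, the others 8.02 to 8.18) and array 2 was highest for Dnajc11 (6.37, the others 5.93 to 6.03). Array 4 of cohort 4 was highest for Hspa4 (8.07, the others 7.69 to 7.72). Among PDX arrays of the tibialis anterior, the highest stood apart for Hsph1 (7.63 in cohort 2, the others 6.41 to 6.75), Dnajb2 (6.25 in cohort 3, the others 4.90 to 5.27) and Hspa1a (6.05 in cohort 4, the others 4.40 to 4.57).

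The tumour effect differed between the muscles, by limma's test of the difference itself, for Hsph1 (-0.79), Dnajb9 (-0.54), Dnajc27 (-0.45), Hspe1 (-0.36), Hspd1 (-0.34), Dnaja2 (-0.33) and Dnajb12 (-0.27, diaphragm effect minus tibialis anterior effect, log2).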

How the results depend on the processing

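Counts of the 72 genes that passed were 18 in the diaphragm, 18 in the tibialis anterior, 7 for the difference of the muscles and 42 for the sham muscles. With the cohort as the replicate they were 9, 4 and 0 for the first 3, where 4.39%, 4.84% and 1.74% of all genes passed. Without the liver-high arrays 10 passed in the diaphragm, 4 for the difference and 25 for the sham muscles. Of all genes, 6.2%, 5.24% and 24.4% passed there. That setting was chosen after seeing the data for the last 2. In the tibialis anterior 5 passed without cohort 1 (6.15% of all genes), 6 without cohort 3 (9.71%) and 0 with the tendon marker covariate (0%). For the difference, 11 passed with array weights (11.6% of all genes). Without cohort 1, 2, 3 and 4, counts were 3, 3, 4 and 4 (2.29%, 3.04%, 5.72% and 4.96% of all genes). Leaving out 1 array gave 14 to 22 in the diaphragm, 10 to 21 in the tibialis anterior (10 without PDX array 3 of cohort 1), 6 to 9 for the difference and 35 to 43 for the sham muscles. The tendon covariate turned the sign in the tibialis anterior of Dnajb12 (-0.0024 ± 0.13), Hspa1a (0.34 ± 0.62) and Hspb3 (0.0067 ± 0.23), each with a limma adjusted p of 0.999. That covariate was itself lower in PDX than in sham arrays (medians 3.71 and 4.89), so the fit cannot well separate it from the tumour effect. The cause was not tested. The labels do not say whether samples of equal replicate number are paired, and a replicate block gave 19, 18, 7 and 42. In the diaphragm Dnaja3, Dnaja4, Dnajc15, Hspa4l, Hspb3, Hspd1, Hspe1 and Hsph1 passed under every alternative run. Sizes are less certain for dim probe sets.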
